A study of Homo sapiens with 12 samples.

Results

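The genes of the DNA replication machinery were followed through a pooled knockout screen as 39 members: ORC1 to ORC6, CDT1 and GMNN, MCM2 to MCM7, MCM10, CDC45, GINS1 to GINS4, POLA1 and POLA2, POLD1 to POLD4, POLE and POLE2 to POLE4, PCNA, RFC1 to RFC5, and RPA1 to RPA3. They were found as the entries of the sgRNA count table whose gene name equals a member. All 39 were present, each with 6 sgRNAs, which gave 234 of the 121411 sgRNAs that target a gene and 39 of the 20915 gene names. The screen used the GeCKO v2 library, in which each lentivirus carries Cas9 and 1 sgRNA, in 2 HER2-amplified cell lines: OE19, from an adenocarcinoma of the oesophagogastric junction, and N87, from a gastric carcinoma. Cells were infected at a multiplicity of 0.3, selected with puromycin for 7 days (1.5 µg/mL for OE19 and 0.75 µg/mL for N87), and then grown for 14 days with lapatinib (1 µM for OE19 and 0.5 µM for N87) or with vehicle (DMSO). Lapatinib inhibits the EGFR and HER2 kinases. Cells collected after selection served as the baseline, and each of the 6 conditions had 2 replicate libraries. All groups, baseline included, carried the library and Cas9, and what was counted is the sgRNA DNA in the surviving cells, so a low count cannot tell slow growth from cell loss, and the identity of the lines could not be checked against marker genes.

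DNA replication begins at origins, where the origin recognition complex and CDT1 load the MCM2 to MCM7 helicase onto DNA. CDC45 and the GINS complex join the loaded helicase and make it active, after which polymerase alpha lays down primers, polymerase epsilon extends the leading strand and polymerase delta the lagging strand. The PCNA clamp, placed by the RFC clamp loader, holds the polymerases on DNA, and RPA covers the single strands. Because dividing cells need most of these proteins, loss of their sgRNAs during growth is a common readout of pooled knockout screens.

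Total counts ran from 13105805 to 33743599 per library, lowest in the OE19 lapatinib libraries. The median replication sgRNA was rarer than the median sgRNA of the pool in all 12 libraries. Their median normalized count per sgRNA (median-of-ratios scaling over the 12 libraries) was 98.2 and 109 in the OE19 lapatinib libraries, 97.7 and 97.0 in the OE19 vehicle libraries, and 121 and 127 in the OE19 baseline libraries. In N87 it was 76.1 and 88.3 with lapatinib, 86.9 and 71.3 with vehicle, and 115 and 105 at baseline. Over all sgRNAs the median lay between 144 and 151 in all 12 libraries. The baseline values of the replication sgRNAs were thus below the pool in both lines, and the vehicle values were below the baseline values without overlap. Within the N87 lapatinib libraries the whole pool was spread wide: the interquartile range of log2 counts was 3.07 and 2.40 over all sgRNAs and 3.75 and 3.20 over the replication sgRNAs, against 1.65 and 1.75 for the replication sgRNAs with vehicle. Of the 234 replication sgRNAs, 9 and 3 had no count in N87 under lapatinib, against 0 and 1 under vehicle.

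**Figure D1:**
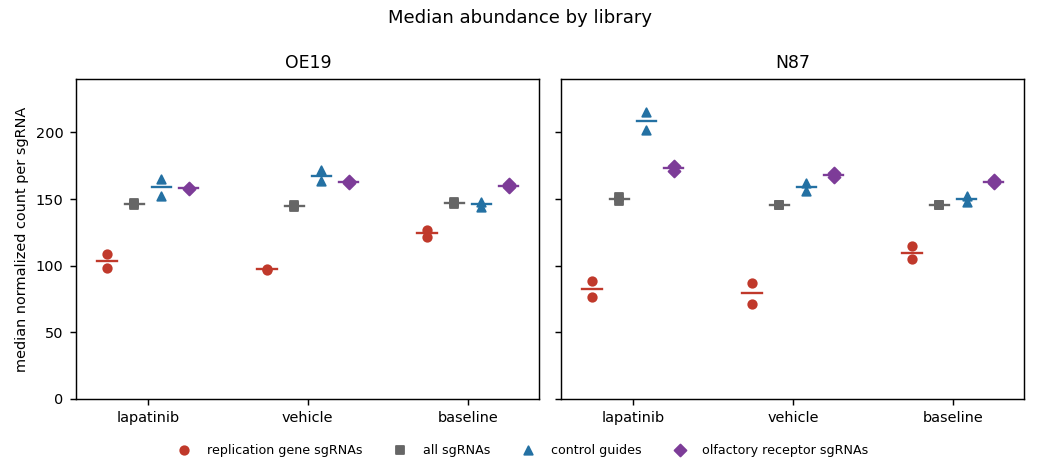
Median normalized count per sgRNA (vertical axis, from 0) in each library of OE19 (left) and N87 (right), for the replication genes, all sgRNAs, control guides that target no gene, and olfactory receptor genes; points are libraries and lines the mean of 2. The replication sgRNAs lie lowest in every condition, between 71.3 and 127, and lower with vehicle than at baseline in both lines.

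The first comparison, 14 days with vehicle against baseline, asks which sgRNAs were lost during growth without drug. In both lines most replication sgRNAs were lower after growth, by a modest amount. The baseline was collected after 7 days of puromycin and no earlier library was counted, so any loss before it is not part of these folds. In OE19, 178 of 231 tested sgRNAs (those with at least 40 counts over the 4 libraries) had a log2 fold change below 0 and the median was -0.29, against 0.01 over all sgRNAs, 0.19 over control guides and 0.05 over olfactory receptor genes. In N87, 194 of 231 were below 0 and the median was -0.38, against 0.02, 0.09 and 0.05. The distance between the replication sgRNAs and all sgRNAs was -0.31 in OE19 and between -0.40 and -0.39 in N87 under the scalings run. A change of scaling shifts all sgRNAs of a library nearly alike, so this distance could hardly change and is no separate support. Both vehicle libraries lay below both baseline libraries for 129 of 231 sgRNAs in OE19, where 21.8% of all sgRNAs did so, and for 133 of 231 in N87, where 17.8% did.

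Single sgRNAs seldom passed the test with 2 libraries a condition. By edgeR's quasi-likelihood test, adjusted over all sgRNAs, 12 of 231 fell in OE19, where 0.893% of all sgRNAs fell, and 1 of 231 fell in N87, where 0.0399% did. None rose: 0 of 231 in OE19 (0.0114% of all) and 0 of 231 in N87 (0% of all). At an unadjusted p under 0.05, 67 were lower in OE19 (29%, against 7.77% of all) and 88 in N87 (38.1%, against 5.01% of all). At the same threshold, 4 were higher in OE19 (5% of all) and 0 in N87 (2.65% of all). DESeq2 called 16 lower in OE19 (1.13% of all) and 6 in N87 (0.184% of all). It called 0 higher in OE19 (0.0263% of all) and 0 in N87 (0.00578% of all). The 12 sgRNAs belong to 10 genes, with 2 each for MCM3 and MCM6, and the N87 sgRNA targets MCM2. These counts come from fits without a replicate block, and they moved widely in both lines when single libraries were left out. Combined over the sgRNAs of a gene by robust rank aggregation, 4 of 39 genes were depleted in OE19 (RPA3, GINS3, RFC5 and MCM6), against 1.53% of all genes, and 10 of 39 in N87 (GINS3, RFC5, RFC4, MCM6, MCM2, POLD3, MCM5, MCM4, GINS1 and RPA3), against 2.34% of all genes. The 4 genes of OE19 are among the 10 of N87. No member was enriched in OE19 (0% of all genes) or in N87 (0.0574% of all genes) by rank aggregation. At an unadjusted p under 0.05, 17 of 39 were lower in OE19 (43.6%, against 6.99% of all genes) and 27 of 39 in N87 (69.2%, against 7.07%). At the same threshold, 0 were enriched in OE19 (4.99% of all genes) and 0 in N87 (5.11%). Limma on gene medians called 0 higher in OE19 (0.0718% of all genes) and 0 in N87 (0.00479%). By limma on gene medians, 6 members were lower in OE19 (MCM5, GINS3, RPA3, POLE2, RFC2 and ORC6), against 2.94% of all genes, and 1 in N87 (GINS3), against 0.335%. With 2 libraries a condition, the edgeR and limma p-values rest on the spread between those libraries, moderated over all sgRNAs or genes. The rank aggregation p-values come from the ranks of a gene's sgRNAs among all sgRNAs. The sgRNAs of a gene share their target and are not replicates of the condition. Without N87 vehicle replicate 2 the N87 calls of RFC4, MCM6, POLD3, MCM5, GINS1 and RPA3 were lost. Without OE19 vehicle replicate 2 the OE19 calls of GINS3, RFC5 and MCM6 were lost. With each library left out in turn, their OE19 medians ran from -0.76 to -0.63 (GINS3), -0.64 to -0.48 (RFC5) and -0.77 to -0.61 (MCM6).

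The sum over the 6 sgRNAs of a gene gives the level per library. This sum was lower in both vehicle libraries than in both baseline libraries for 30 of 39 genes in OE19, against 21.5% of all genes, and for 31 of 39 in N87, against 17.8% of all genes. The OE19 exceptions were GMNN, MCM10, ORC1 to ORC5, POLA2 and POLD2, and the N87 exceptions were MCM10, ORC2 to ORC4, PCNA, POLD4, POLE and POLE3. MCM10 and ORC2 to ORC4 were thus exceptions in both lines.

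**Figure D2:**
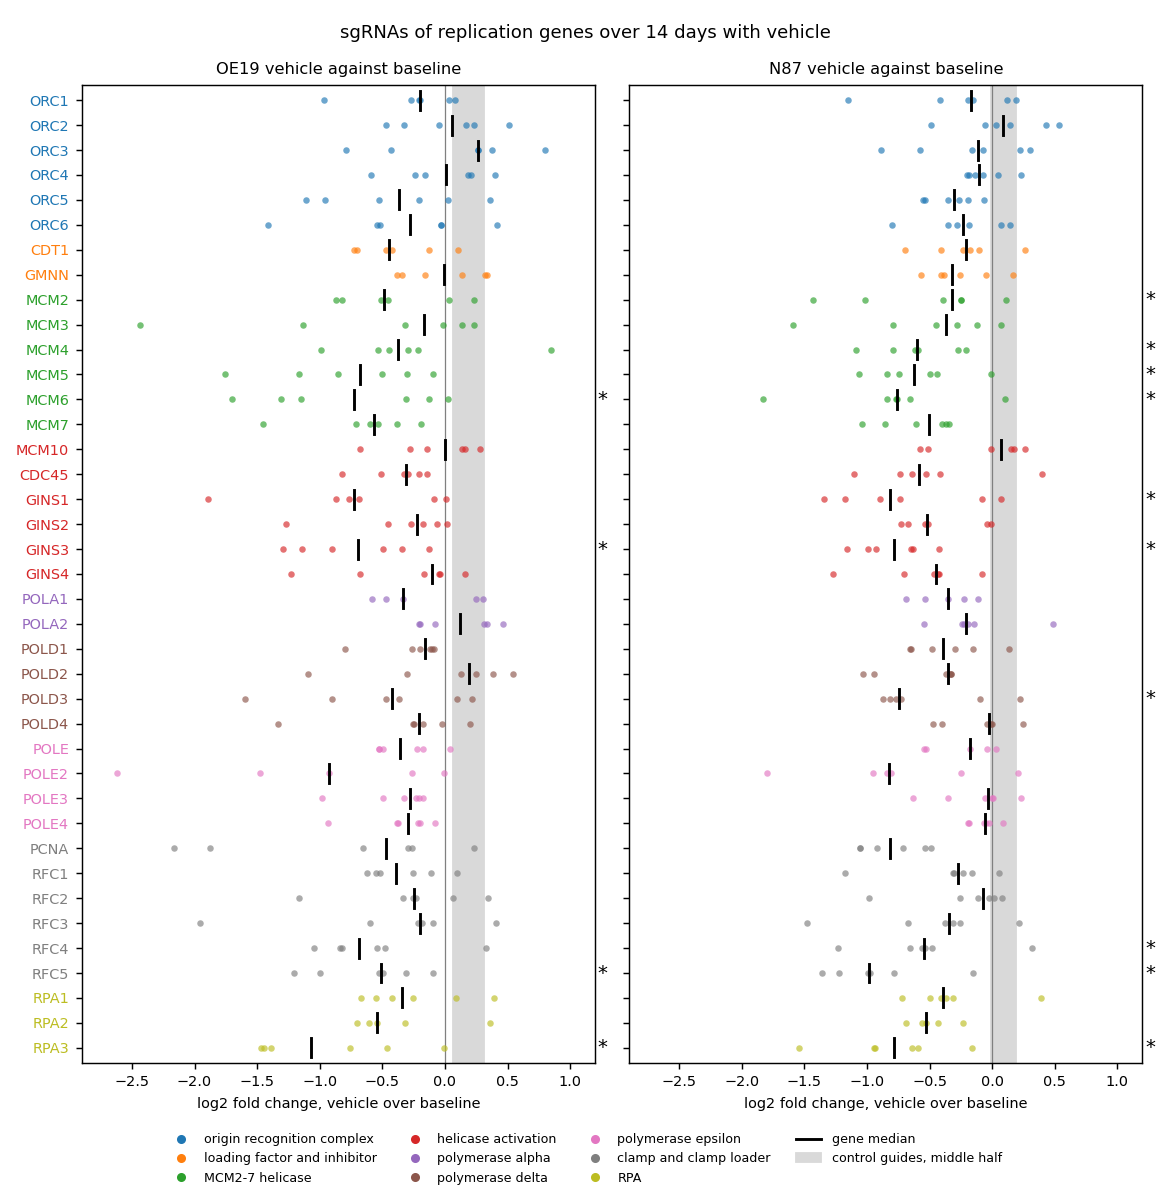
Log2 fold change of each tested sgRNA, vehicle over baseline (horizontal axis), by gene in the order of their roles, in OE19 (left) and N87 (right); black bars are gene medians, the grey band spans the interquartile range of the control guides, and an asterisk marks genes depleted by rank aggregation at an adjusted p under 0.05 (4 in OE19, 10 in N87). Most points of the MCM, GINS, RFC and RPA genes lie left of the band, while the ORC genes straddle 0.

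The origin recognition complex, which marks origins, was among the groups with medians nearest to 0. Its 36 sgRNAs had a median log2 fold change of -0.10 in OE19 and -0.16 in N87. No subunit was depleted by rank aggregation in either line, but limma called ORC6 lower in OE19. By rank aggregation at an unadjusted p under 0.05, 2 subunits were lower in OE19 (6.99% of all genes) and 3 in N87 (7.07% of all genes). The lowest subunit in both lines was ORC5, with a median of -0.37 ± 0.57 in OE19 and -0.31 ± 0.19 in N87 (here and below, SD over the sgRNAs of the gene). The highest was ORC3 in OE19 (0.27 ± 0.58) and ORC2 in N87 (0.08 ± 0.37). ORC2 sgRNAs summed to 431 and 468 normalized counts in the OE19 vehicle libraries, against 468 and 432 at baseline, and to 435 and 475 in the N87 vehicle libraries, against 456 and 403 at baseline, so its groups overlapped in both lines, and its medians of 0.06 and 0.08 turned to -0.12 and -0.01 with scaling on the control guides. ORC6, whose median was -0.28 ± 0.63 in OE19, had 1 sgRNA (HGLibB_35570) that fell, with a log2 fold change of -1.41. CDT1, which loads the helicase, had medians of -0.45 ± 0.33 in OE19 and -0.21 ± 0.32 in N87. GMNN, which encodes geminin, the inhibitor of CDT1, had medians of -0.01 ± 0.32 and -0.32 ± 0.27. Neither passed the test.

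The MCM2 to MCM7 helicase, the ring that unwinds the DNA, was among the groups with the lowest medians. Its 36 sgRNAs had a median of -0.48 in OE19, with 30 below 0, and -0.60 in N87, with 33 below 0. By rank aggregation 4 of its 6 subunits were depleted in N87 and 1 in OE19. MCM6 was the lowest subunit in both lines. Its sgRNAs summed to 389 and 413 in the OE19 vehicle libraries, against 621 and 653 at baseline, and to 421 and 313 in the N87 vehicle libraries, against 569.6 and 524 at baseline. The vehicle libraries were below the baseline libraries in both lines, with ratios of mean sums of 0.630 and 0.672. The median log2 fold change of MCM6 was -0.73 ± 0.72 in OE19 (rank aggregation, adjusted p = 0.0317) and -0.76 ± 0.62 in N87 (adjusted p = 0.00138). The call was lost by limma in both lines, without OE19 baseline replicate 2 or OE19 vehicle replicate 2 in OE19, and without either N87 vehicle replicate in N87. In N87, MCM2 (-0.32 ± 0.57, adjusted p = 0.00215), MCM4 (-0.60 ± 0.33, adjusted p = 0.0170) and MCM5 (-0.62 ± 0.37, adjusted p = 0.0144) were also depleted, and none of the 3 by limma. MCM5 also lost its call without N87 baseline replicate 1 or N87 vehicle replicate 2. MCM2 and MCM4 kept their calls without either N87 vehicle library, but their medians moved, to -0.79 and -0.99 without N87 vehicle replicate 1 and to -0.04 and -0.32 without N87 vehicle replicate 2. The lowest sgRNAs of MCM2 were HGLibB_29562 and HGLibB_29563, at -1.43 and -1.02, and its other 4 lay between -0.40 and 0.11. MCM3 was the highest subunit in OE19, at -0.17 ± 1.03, and its sgRNAs were uneven: HGLibB_29567 had 18 and 20 raw counts with vehicle, against 122 and 98 at baseline, while 2 others were above 0.

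The factors that turn the loaded helicase on were split. MCM10, which acts when the helicase starts to unwind, had medians of -0.00 ± 0.36 in OE19 and 0.07 ± 0.37 in N87, the highest of its group in both lines, and -0.19 and -0.02 with scaling on the control guides. CDC45 and the GINS genes lay lower. GINS3 sgRNAs summed to 684 and 707 in the OE19 vehicle libraries, against 1012 and 1111 at baseline, and to 709.7 and 552 in the N87 vehicle libraries, against 1091 and 927 at baseline. All 6 GINS3 sgRNAs were below 0 in both lines, and the gene median was -0.70 ± 0.46 in OE19 (adjusted p = 0.0137) and -0.79 ± 0.27 in N87 (adjusted p = 4.38e-06). The OE19 call was lost without OE19 vehicle replicate 2, and the N87 median was -0.50 without N87 vehicle replicate 2. GINS3 was the only member below the threshold in N87 by limma on gene medians as well (adjusted p = 0.0439). GINS1 was the lowest gene of the group in both lines, at -0.73 ± 0.68 in OE19 and -0.81 ± 0.57 in N87, and was depleted in N87 (adjusted p = 0.0170) but not in OE19 (adjusted p = 0.294). GINS1 lost its N87 call when any of the 4 libraries was left out, and also by limma, with scaling on the control guides and with a count minimum 5 times as high.

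Polymerase alpha, which makes the primers, showed small differences. POLA1, the catalytic subunit, had medians of -0.33 ± 0.42 in OE19 and -0.35 ± 0.23 in N87, and POLA2 had 0.12 ± 0.30 and -0.21 ± 0.34. Among the polymerase delta genes, POLD3 was depleted in N87, with a median of -0.75 ± 0.46 (adjusted p = 0.00968), and was the lowest of its group in OE19 too, at -0.42 ± 0.67. POLD3 did not pass in N87 by limma or with DESeq2 p-values, nor without N87 baseline replicate 1 or N87 vehicle replicate 2. Its N87 median was -1.14 without N87 vehicle replicate 1 and -0.31 without N87 vehicle replicate 2. The highest were POLD2 in OE19 (0.19 ± 0.60) and POLD4 in N87 (-0.03 ± 0.27). Among the polymerase epsilon genes, POLE2 had the lowest median in both lines, -0.92 ± 1.04 in OE19 and -0.82 ± 0.68 in N87, yet it was not depleted by rank aggregation (adjusted p = 0.115 and 0.118). By limma POLE2 was lower in OE19 (adjusted p = 0.00950) and not in N87 (adjusted p = 0.313). The highest in both lines was POLE3, an accessory subunit, at -0.28 ± 0.31 and -0.03 ± 0.31.

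The clamp and its loader were low in both lines, with medians of -0.41 in OE19 and -0.51 in N87 over 36 sgRNAs. RFC5, a small subunit of the loader, had sums of 917 and 750.2 in the OE19 vehicle libraries, against 1241 and 1343 at baseline, and of 778 and 503 in the N87 vehicle libraries, against 1199 and 1068 at baseline. Its ratio of mean sums was 0.646 in OE19 and 0.566 in N87. The median was -0.51 ± 0.42 in OE19 (adjusted p = 0.0264) and -0.98 ± 0.42 in N87 (adjusted p = 0.000146), the lowest gene median of the 39 in that line. The RFC5 call was lost by limma in both lines and without OE19 vehicle replicate 2 in OE19, and its N87 median was -0.63 without N87 vehicle replicate 2. RFC4 had the lowest median of the group in OE19, at -0.68 ± 0.49, and was depleted in N87, at -0.55 ± 0.50 (adjusted p = 0.000435), but not by limma nor without N87 vehicle replicate 2. Its N87 median was -0.88 and -0.34 without N87 vehicle replicates 1 and 2. The highest were RFC3 in OE19 (-0.20 ± 0.81) and RFC2 in N87 (-0.07 ± 0.40). All 6 sgRNAs of PCNA were below 0 in N87, with a median of -0.82 ± 0.25, but it was not depleted (adjusted p = 0.138). Its counts were low and uneven, with sums of 354 and 289 in the OE19 vehicle libraries, against 470.0 and 549 at baseline, and of 237 and 140.2 in the N87 vehicle libraries, against 383 and 232 at baseline, so that the N87 groups overlapped.

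The RPA genes, whose products coat single-stranded DNA, lay lowest of the 9 role groups in OE19, with a median of -0.54 over 17 sgRNAs, and at -0.53 in N87. RPA3, the smallest subunit, was the lowest of the 3 in both lines. Its sgRNAs summed to 744 and 852 in the OE19 vehicle libraries, against 1060.2 and 1075.5 at baseline, and to 669 and 563 in the N87 vehicle libraries, against 909 and 858 at baseline. The groups did not overlap in either line. The RPA3 median was -1.07 ± 0.61 in OE19 (adjusted p = 0.0131), the lowest gene median of the 39 there, and -0.79 ± 0.46 in N87 (adjusted p = 0.0390). The N87 call was lost with scaling on the control guides, by limma, and without N87 baseline replicate 2 or N87 vehicle replicate 2, where the median was -0.50. The OE19 call was lost without OE19 vehicle replicate 1, where the median was -0.70, and the median was -1.61 without OE19 vehicle replicate 2. The highest was RPA1 in both lines, at -0.34 ± 0.40 and -0.39 ± 0.38.

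For the genes depleted in both lines, the gene models in GENCODE on GRCh37 lie at chr2:136597196-136634013 on the minus strand (MCM6), chr16:58328984-58440051 on the plus strand (GINS3), chr12:118451393-118470935 on the plus strand (RFC5) and chr7:7676149-7758238 on the minus strand (RPA3). POLE2 lies at chr14:50110273-50155140 on the minus strand. The count table gives neither the cut sites nor the sequences of the sgRNAs, so the exon that each one targets was not analysed here.

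In growth without drug, the medians of most genes ran in the same direction in both lines. Of the 39 genes, 33 had a median below 0 in both lines, and across the genes the medians of the lines were related with Pearson's r = 0.70 and Spearman's rho = 0.69. These are given as a description, since genes of 1 complex are not independent and the lines share the library. The difference between the lines, tested as the interaction of line and condition over 8 libraries, passed for 0 of 231 sgRNAs (0.00325% of all, edgeR) and for 0 of 39 genes (0.23% of all, rank aggregation). Few passed over the whole screen, so the lack of member calls does not show that the lines are alike. At an unadjusted p under 0.05, 6 sgRNAs were lower (3.39% of all) and 9 higher (2.38% of all) in OE19, and 1 gene was lower (POLE3; 5.39% of all) and 2 higher (MCM4 and POLD2; 5.2% of all). DESeq2 called 0 sgRNAs in either direction and limma 0 genes, and 1 sgRNA was lower without OE19 vehicle replicate 2. The largest gene difference, OE19 minus N87, was 0.61 ± 0.32 for POLD2, the small subunit of polymerase delta that joins the catalytic subunit to the others (adjusted p = 0.157). POLD2 sums were 720.4 and 616 in the OE19 vehicle libraries, against 634 and 680.1 at baseline, and 509 and 422 in the N87 vehicle libraries, against 664 and 655 at baseline. The POLD2 groups overlapped in OE19 and did not in N87.

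**Figure D3:**
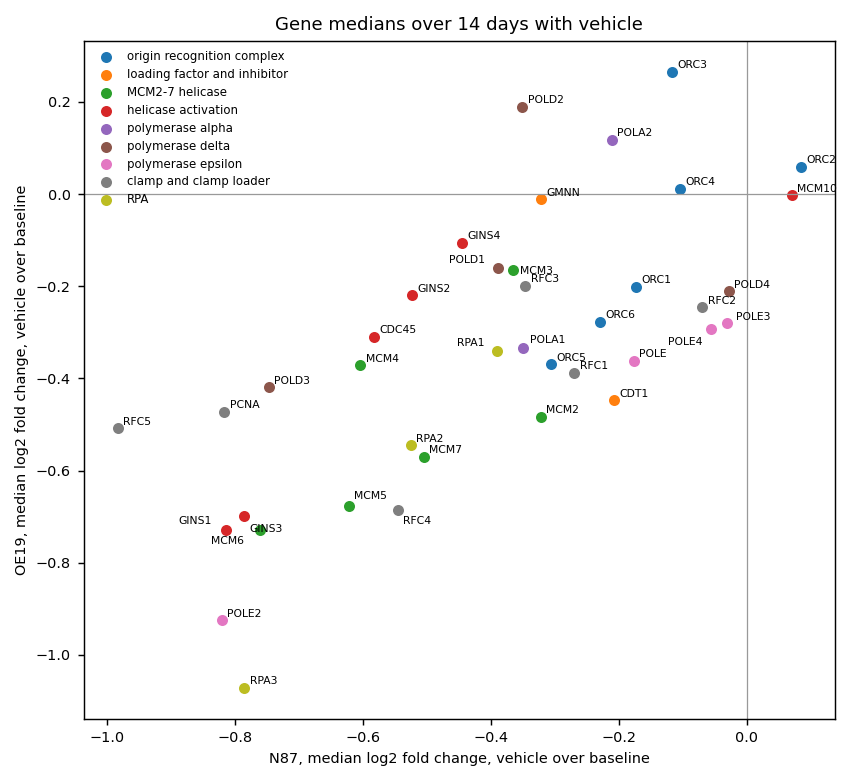
Median log2 fold change over the sgRNAs of each of the 39 genes, vehicle over baseline, in OE19 (vertical axis) and N87 (horizontal axis), coloured by role. RPA3, POLE2, GINS1, GINS3 and MCM6 lie low in both lines, and ORC2 and MCM10 lie near 0 in both.

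Other genes of replication, listed from their textbook roles, behaved as follows in growth without drug. Over all genes, rank aggregation called 1.53% depleted in OE19 and 2.34% in N87. At an unadjusted p under 0.05 it gave 6.99% lower and 4.99% higher in OE19, and 7.07% lower in N87. Limma called 2.94% of all genes lower in OE19 and 0.335% in N87. Of 13 licensing and origin firing factors, 0 were depleted in OE19 and 2 in N87: CCNA2, which encodes cyclin A2, at -0.72 ± 0.61 (adjusted p = 0.00418), and TICRR, at -0.58 ± 0.28 (adjusted p = 0.0123). In OE19, 3 of the 13 were lower at an unadjusted p under 0.05 and 1 by limma. Of 22 fork and lagging strand factors, 1 was depleted in OE19 (SSRP1, a subunit of the histone chaperone FACT, at -0.91 ± 0.48, adjusted p = 0.0139) and 0 in N87, with 8 and 9 at an unadjusted p under 0.05. Of 15 nucleotide supply genes, 3 were depleted in OE19 (CAD, DHODH and DUT), and DTYMK, the thymidylate kinase, was depleted in N87 at -0.68 ± 0.42 (adjusted p = 0.00642), as was DUT. DUT, the dUTPase, was at -0.92 ± 0.74 in OE19 and -0.72 ± 0.70 in N87. CAD and DHODH, enzymes of pyrimidine synthesis, differed between the lines: the interaction was -0.93 ± 0.58 for CAD (rank aggregation, adjusted p = 0.00298) and -0.77 ± 0.59 for DHODH (adjusted p = 0.0146), with both lower in OE19. Of 9 replication checkpoint genes, 0 were depleted in OE19 and 1 in N87 (RAD9A, a subunit of the checkpoint clamp, at -0.96 ± 0.35, adjusted p = 0.00692), with 2 lower in OE19 at an unadjusted p under 0.05 and 1 by limma. The 4 relatives MCM8, MCM9, MCMDC2 and RPA4, which are not part of the core fork, had medians over 24 sgRNAs of -0.03 in OE19 and 0.06 in N87, and 0 passed in either line, with 0 lower at an unadjusted p under 0.05 in both and 1 higher in OE19. By rank aggregation, none of the genes on the 5 lists was enriched in growth (0% of all genes in OE19, 0.0574% in N87). With lapatinib against vehicle none was depleted (0% of all genes in OE19, 0.0144% in N87) or enriched (0.0957% and 0%), so few calls could be found. Limma on gene medians called genes of each list lower and higher in N87 with lapatinib (23.7% and 29.2% of all genes). In OE19 it called none lower (0.383% of all genes) and some higher (2.38%).

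The next comparison, lapatinib against vehicle, asks whether these genes changed with the drug beyond growth. It shares the vehicle libraries with the growth comparison, so chance deviations of those libraries enter both with opposite signs. In OE19 they changed little and lay slightly above the pool. The median log2 fold change of 229 tested sgRNAs was 0.08, against -0.02 over all sgRNAs and -0.14 over control guides, and 96 were below 0 (41.9%, against 51.6% of all). Both lapatinib libraries lay above both vehicle libraries for 66 of 229 (28.8%, against 23.9% of all). They lay below for 37 of 229 (16.2%, against 24.1% of all). The edgeR test called 0 sgRNAs lower (0.0795% of all) and 1 higher (2.33% of all), and rank aggregation called 0 genes depleted (0% of all) and 0 enriched (0.0957% of all). At an unadjusted p under 0.05, 7 sgRNAs were lower (3.06%, against 5.64% of all) and 21 higher (9.17%, against 9.81% of all), and 2 genes were lower (MCM4 and ORC2; 5.13%, against 5.37% of all) and 0 higher (5.47% of all). Each share lies below that of the whole pool. DESeq2 called 0 sgRNAs lower (0.13% of all) and 2 higher (3.24% of all), and limma 0 genes lower (0.383% of all) and 0 higher (2.38% of all). The sgRNA that rose is HGLibA_45787 of POLD3, at 1.49 (adjusted p = 0.0338), with 602 and 282 normalized counts with lapatinib against 147 and 159 with vehicle. The other 5 sgRNAs of POLD3 lay between -0.58 and 0.84. The edgeR counts of 0 lower and 1 higher moved when single libraries were left out. With scaling on total counts alone, the median of all sgRNAs moved to -0.46 and that of the replication sgRNAs to -0.36, so the sign of 0.08 depends on the scaling. The distance between the sets was 0.10 in the main fit and 0.09 to 0.10 in the others, but scaling shifts both sets nearly alike and could hardly change it.

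Relative to the pool, the OE19 genes at the top with lapatinib were PCNA (0.72 ± 0.57), RPA3 (0.64 ± 0.73), MCM5 (0.52 ± 0.46), POLE4 (0.51 ± 0.29) and POLE2 (0.44 ± 0.64), and none of them passed. PCNA sums were 636 and 396 in the OE19 lapatinib libraries, against 354 and 289 with vehicle, without overlap. RPA3 sums were 1072 and 945 with lapatinib, against 744 and 852 with vehicle, also without overlap. In OE19 the sum was above vehicle without overlap for 19 of 39 members and for 7592 of 20896 genes. It was below for 6 of 39 members and for 4028 of 20896 genes. At the bottom were ORC3 (-0.66 ± 0.48), MCM10 (-0.43 ± 0.55), ORC2 (-0.41 ± 1.15), POLD2 (-0.34 ± 0.47) and GMNN (-0.32 ± 0.26). ORC3 sums were 561 and 767 in the OE19 lapatinib libraries, against 904 and 751 with vehicle, and overlapped. By role, the medians ran from -0.06 for the origin recognition complex to 0.40 for polymerase epsilon.

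In N87 the sgRNAs of these genes scattered in both directions with lapatinib, as the pool did. The median over 226 tested sgRNAs was -0.07, equal to that over all sgRNAs, against 0.25 over control guides. The edgeR test called 57 sgRNAs lower and 67 higher, that is 25.2% and 29.6% of those tested, against 29.9% and 31.2% of all sgRNAs. Rank aggregation called 0 genes depleted (0.0144% of all) and 0 enriched (0% of all), with 0 lower (5.18% of all) and 2 higher (POLE2 and POLA1; 5.08% of all) at an unadjusted p under 0.05. By limma on gene medians 7 of 39 members were lower, against 23.7% of all genes, and 8 higher, against 29.2% of all genes, so a smaller share of the members was called than of all genes. The count of 57 lower sgRNAs fell when either N87 vehicle library was left out. Scaling on total counts moved the median of all sgRNAs, and that of the replication sgRNAs, to -0.59. Of the 1999 control guides tested, 314 were called lower and 731 higher, so in these libraries a call of 1 sgRNA does not set it apart from guides that target no gene.

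The spread ran through most genes. CDT1 had the lowest median in N87 with lapatinib, at -1.72 ± 1.08, followed by RFC5 (-1.499 ± 1.16), MCM5 (-1.47 ± 1.18), POLD4 (-1.43 ± 2.84) and RFC3 (-1.31 ± 1.21). CDT1 sums were 154.6 and 113 in N87 under lapatinib, against 372 and 324 under vehicle. RFC5 sums were 487 and 529.7 with lapatinib, against 778 and 503 with vehicle, and overlapped. At the top were RPA1 (1.14 ± 1.35), POLE4 (1.11 ± 0.96), POLA1 (1.06 ± 2.40), ORC3 (1.00 ± 2.19) and POLE2 (1.00 ± 3.86). POLE4 was the most even of these: 4 of its 6 sgRNAs were called higher and 0 lower, and its sums were 2902 and 2751 in N87 under lapatinib, against 1271 and 1156 under vehicle. A higher sum was common here. In N87 the sum was above vehicle without overlap for 25 of 39 members and for 14731 of 20896 genes. It was below for 6 of 39 members and for 3562 of 20896 genes. By role, the N87 medians ran from -1.24 for CDT1 and GMNN to 0.44 for the origin recognition complex. ORC3 was mixed, with 4 sgRNAs called higher and 2 called lower. None of the 10 genes was depleted or enriched by rank aggregation, and the lowest adjusted p for enrichment among them was 0.469, for POLE2.

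**Figure D4:**
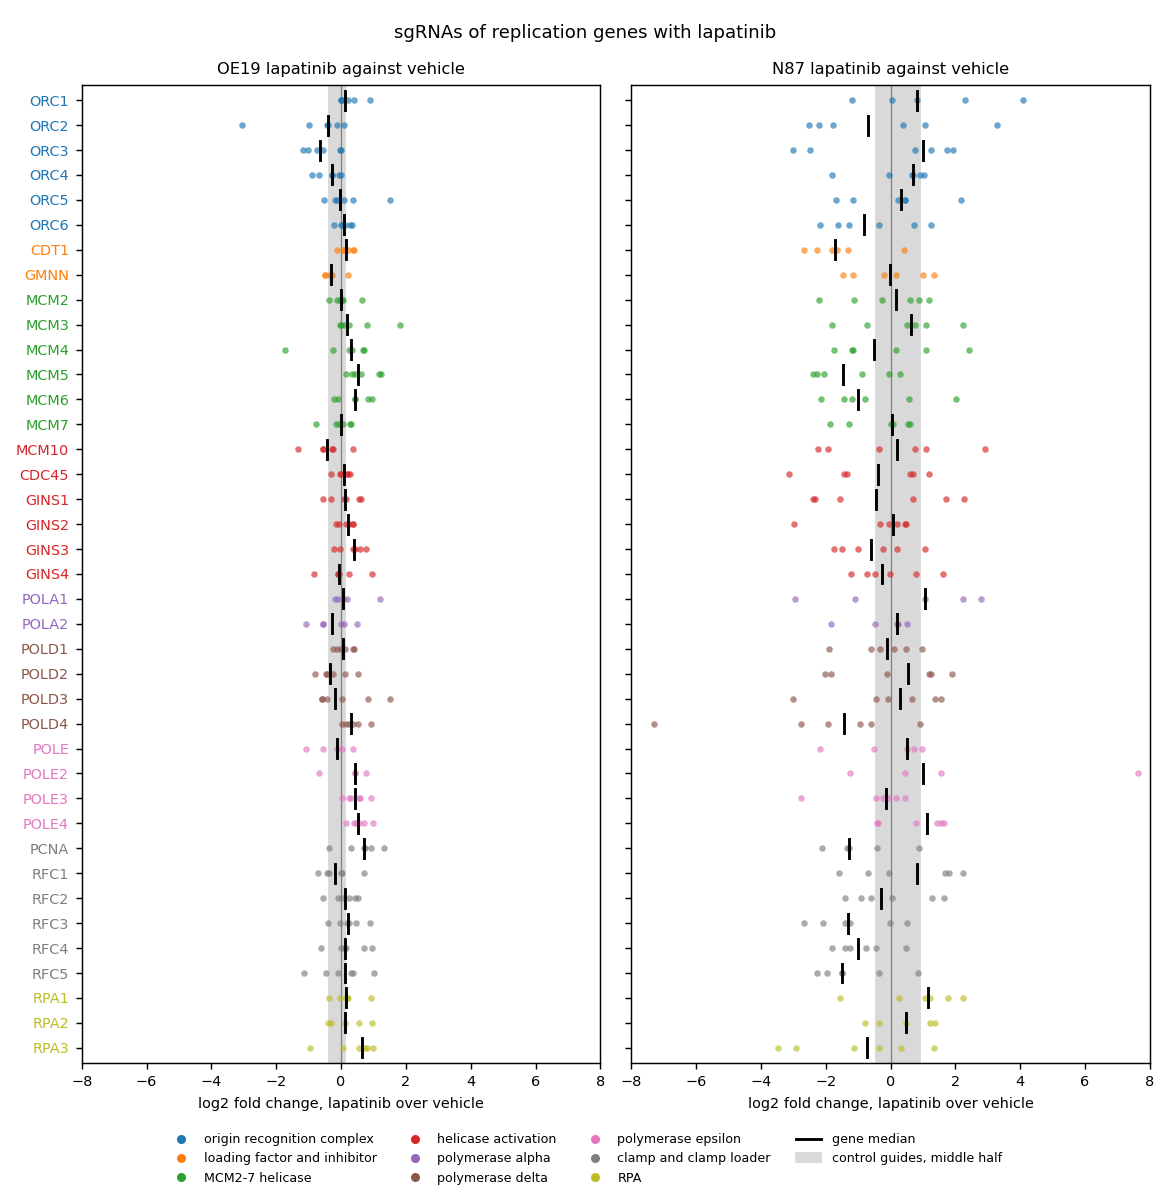
Log2 fold change of each tested sgRNA, lapatinib over vehicle (horizontal axis), by gene, in OE19 (left) and N87 (right), with black bars for gene medians and a grey band for the interquartile range of the control guides. Points cluster near 0 in OE19 and spread to both sides of 0 within most genes in N87, with 1 sgRNA of POLE2 far to the right at 7.63 and 1 of POLD4 far to the left.

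Lapatinib was also compared with the baseline, where the medians of the replication sgRNAs lay below 0 in both lines but fewer gene sums were low than with vehicle. The sum over the sgRNAs of a gene was lower in both OE19 lapatinib libraries than in both baseline libraries for 17 of 39 genes, against 21.3% of all genes, and higher for 4, against 42.7%. In N87 it was lower for 15 of 39, against 18.4% of all genes, and higher for 16, against 71.8%. PCNA sums were 636 and 396 in OE19 under lapatinib, against 470.0 and 549 at baseline, and overlapped. These comparisons share the lapatinib libraries with those above and the baseline libraries with those for vehicle. In OE19 the median over 230 sgRNAs was -0.22, with 162 below 0, and edgeR called 0 lower (0% of all) and 0 higher (0.000817% of all), with 46 lower (8.36% of all) and 8 higher (11.5% of all) at an unadjusted p under 0.05. DESeq2 called 12 lower (1.57% of all) and 3 higher (5.92% of all). The edgeR counts of 0 did not hold when either OE19 lapatinib library was left out. Rank aggregation called 1 gene, RFC5, depleted in OE19 (0.129% of all genes), at -0.63 ± 0.42 (adjusted p = 0.0484), with sums of 803 and 917 with lapatinib against 1241 and 1343 at baseline. Limma called 0 members lower (0.258% of all genes) and 0 higher (1.12%). The RFC5 call was lost under 5 of the other settings and in each fit without one of the 4 libraries, OE19 lapatinib replicates 1 and 2 and OE19 baseline replicates 1 and 2. In N87 the median over 230 sgRNAs was -0.45, against -0.08 over all sgRNAs. The edgeR test called 94 lower, against 33.6% of all, and 53 higher, against 33.7% of all. Both counts fell without N87 baseline replicate 1, and the first also fell without N87 baseline replicate 2. Rank aggregation called 0 genes depleted in N87 (0.134% of all genes), with 6 at an unadjusted p under 0.05 (5.23% of all). Limma called 17 members lower, against 27.5% of all genes, and 5 higher, against 31.7%. The lowest medians were those of RFC5 (-2.61 ± 1.55), PCNA (-2.11 ± 1.29), CDT1 (-2.11 ± 1.12) and MCM5 (-2.11 ± 1.39).

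The lapatinib effect differed between the lines for many sgRNAs, as it did across the pool. By the interaction, OE19 minus N87, edgeR called 33 of 229 sgRNAs lower in OE19 (20.5% of all) and 42 higher (20.7% of all). Rank aggregation called 0 genes (0.0191% of all), with 2 lower (POLA1 and POLE2; 5.14% of all) and 0 higher (5.19% of all) at an unadjusted p under 0.05. Limma called 5 members lower, against 19.2% of all genes, and 8 higher, against 17.2%. The count of 33 fell without N87 vehicle replicate 2 or OE19 vehicle replicate 1. The count of 42 fell without N87 vehicle replicate 1 or either OE19 vehicle replicate. The largest gene medians were 2.10 ± 2.80 for POLD4, 2.06 ± 1.23 for CDT1 and 2.04 ± 1.54 for MCM5, higher in OE19, and -1.24 ± 1.95 for ORC3, lower in OE19. The doses differed between the lines, so the line and the dose cannot be told apart here.

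Within genes, 1 sgRNA sometimes stood far from the rest. A gap of at least 3 on the log2 scale between the fold of an sgRNA and the median of the other 5 of its gene was used to list such cases. None was found among the 39 genes in growth of either line or in OE19 with lapatinib. Such cases were rare there over all sgRNAs of genes with 6 too. In OE19 growth 0% lay above and 0.00704% below, and in N87 growth 0.00264% above and 0% below. In OE19 with lapatinib 0.796% lay above and 0.0572% below. In N87 with lapatinib, 9 sgRNAs lay above and 9 below the others of their gene, against 2.73% and 2.42% of all sgRNAs of genes with 6. These sgRNAs are given as a description.

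The farthest was 1 sgRNA of POLE2, the second subunit of polymerase epsilon, which had been picked out beforehand for this fold. HGLibB_38463 had 985 and 1211 raw counts in N87 cells under lapatinib, against 13 and 3 under vehicle and 21 and 17 at baseline. After scaling, the mean was 1337 normalized counts with lapatinib and 6.27 with vehicle. With a pseudocount of 1 this is a fold of 184, with a pseudocount of 5 one of 119, and with total counts only one of 126, so the size depends on the setting. With a pseudocount of 1 it was 382-fold without N87 vehicle replicate 1 and 121-fold without N87 vehicle replicate 2. In OE19 the same sgRNA had 9 and 14 raw counts with lapatinib, against 28 and 10 with vehicle and 23 and 23 at baseline, a fold of 1.38 after scaling. It was thus high in both N87 lapatinib libraries and low in the other 10. No other sgRNA of POLE2 rose by this much: in N87 with lapatinib their folds had a median of -0.22 on the log2 scale. HGLibB_38464, the most abundant sgRNA of POLE2 in all libraries but the second of N87 lapatinib, had 1374 and 1053 normalized counts with lapatinib, against 375 and 423 with vehicle, a fold of 3.04. HGLibA_45802 had 0 and 2 raw counts with lapatinib, against 13 and 17 with vehicle, too few for the test. Summed over its 6 sgRNAs, POLE2 had 2666 and 2604 normalized counts in N87 under lapatinib, against 512 and 489 under vehicle, most of it from HGLibB_38463 and HGLibB_38464.

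**Figure D5:**
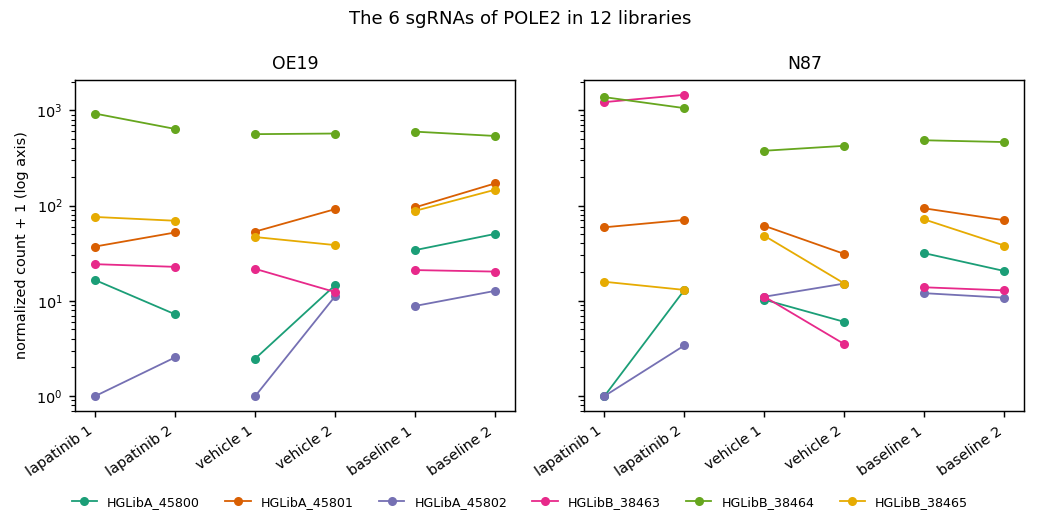
Normalized count + 1 (log axis) of the 6 sgRNAs of POLE2 in the 12 libraries, OE19 on the left and N87 on the right; lines join the 2 libraries of a condition. HGLibB_38463 lies above 1000 in both N87 lapatinib libraries and at or below 23.3 normalized counts in the other 10.

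The other sgRNAs above their gene belonged to ORC1 (HGLibB_35555, at 272 and 183 normalized counts with lapatinib against 22.4 and 2.50 with vehicle), ORC2 (HGLibB_35560, 9.98-fold), MCM10 (HGLibA_36888, 7.80-fold), POLA1 (HGLibB_38433, 7.18-fold), MCM4 (HGLibA_36902, 5.47-fold), GINS1 (HGLibA_20103, 4.84-fold, and HGLibB_20077, 3.36-fold) and MCM6 (HGLibB_29578, 4.12-fold). The ORC2 sgRNA had 450 and 328 raw counts in N87 under lapatinib, against 67 and 50 under vehicle, while the other 5 lay between -2.53 and 1.08 on the log2 scale. The fold of HGLibB_20077 ran from 2.40 to 5.63 with each library left out in turn, highest without N87 vehicle replicate 1. With scaling on total counts alone it was 2.24, that of the MCM4 sgRNA 3.63 and that of the MCM6 sgRNA 2.74. The ORC1 fold was 65.2 without N87 vehicle replicate 1 and 9.76 without N87 vehicle replicate 2. In growth, HGLibB_29578 of MCM6 was lower with vehicle in both lines. It fell in OE19, with 31 and 26 raw counts with vehicle against 100 and 96 at baseline. In N87 it had 65 and 38 with vehicle against 103 and 95 at baseline. With lapatinib in OE19 its mean was 34.1 normalized counts, against 26.2 with vehicle. The sgRNAs below their gene belonged to ORC3 (2 sgRNAs), POLE2, POLA1, POLD2, POLD3, POLD4, RFC1 and CDC45. HGLibB_38452 of POLD4 had 0 and 0 raw counts in N87 cells under lapatinib, against 44 and 4 with vehicle (34.0 and 3.34 normalized counts). At a floor of 3 counts per library its mean was at least 5.10-fold lower, but this rests on N87 vehicle replicate 1 alone: the second vehicle library is under that floor of 3.66 normalized counts, and without the first there is no bound. Both POLE2 and POLA1 had an sgRNA on each side. ORC1 held sgRNAs called in opposite directions too, with HGLibB_35555 at 4.10 and HGLibB_35556 at -1.18.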

How the data were processed

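The deposited table holds raw sgRNA counts of 12 libraries, which the authors made from sequenced sgRNA inserts. The submitters' processing notes name Bowtie2 2.3.2, FastQC 0.11.5 and MAGeCK 0.5.6. Reads came from PCR without molecular identifiers, so counts are not independent molecules. The table has 123411 entries, of which 2000 are control guides. Total counts per library ran between 13105805 and 33743599.

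Counts were tested with edgeR 4.0.16 in R 4.3.3 (quasi-likelihood test, TMM factors, 2-sided, only the libraries compared), for sgRNAs with at least 40 counts over 4 libraries or 80 over 8 for interactions, with Benjamini-Hochberg adjustment over all sgRNAs and a threshold of 0.05. For genes, robust rank aggregation combined the one-sided edgeR p-values of the tested sgRNAs (2 or more a gene, ranks under 0.05), with adjustment over all genes. MAGeCK itself was not run. Alternatives were DESeq2 1.42.0, limma 3.58.1 on gene medians, median-of-ratios, total-count and control-guide scaling, no minimum or 5 times the minimum, rank aggregation over all ranks, pseudocounts of 0.5 and 5, the replicate number as a block, and each library left out. Normalized counts used median-of-ratios factors, and folds of normalized counts a pseudocount of 1. The steps were tested on simulated data. Figures used Python 3.11.15 and matplotlib 3.10.9.

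The members, gene lists and tests were chosen with earlier results of these data known. Genes named were those called in any comparison, the lowest and highest member of each role group in growth, the 5 lowest and 5 highest with lapatinib, POLE2, and sgRNAs with a gap of at least 3 on the log2 scale to the others of their gene. Other gene lists were 5: licensing and origin firing, fork and lagging strand, nucleotide supply, checkpoint, and MCM and RPA relatives. A result of the nucleotide supply list is not reported here.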

Additional observations from a re-analysis of the deposited data

Results flagged for a closer look

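The lapatinib effect, lapatinib over vehicle, differed between the lines for 33 replication sgRNAs that were lower in OE19 and for 42 that were higher in OE19, by the edgeR interaction test. Both shares are below those of all sgRNAs, which were 20.5% and 20.7%. The POLE2 sgRNA HGLibB_38463 had an interaction of -7.19 on the log2 scale, OE19 minus N87 (edgeR, adjusted p = 1.88e-05), and was chosen for its N87 fold, so this value describes it and is no independent evidence. With 2 libraries a condition, single libraries could not be tested as far from their group.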

How the results depend on the processing

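The loss of replication sgRNAs in growth kept its direction in both lines under every alternative run, with median log2 folds of normalized counts between -0.53 and -0.28 in N87 and between -0.32 and -0.28 in OE19 when each library was left out. The number of calls moved more. The counts that follow are of members. Apart from limma, the shares of all sgRNAs or genes called in the same fits are not given beside them. They show how far the calls moved, and not how the members stood against the pool. In N87 growth, the 1 lower sgRNA was 0 with median-of-ratios factors, 8 with control guide scaling, 2 with 5 times the minimum, 6 by DESeq2 and 0 to 76 without single libraries, and the 10 genes were 20 over all ranks, 1 by limma and 4 to 13 without single libraries. In OE19 growth, the 12 sgRNAs were 32 with control guide scaling and 3 to 79 without single libraries, higher sgRNAs 0 to 13, and the 4 genes 2 to 5. In N87 with lapatinib, the 57 lower sgRNAs were 90 with total counts, 36 with 5 times the minimum and 19 to 77 without single libraries, the 67 higher were 35 with total counts and 46 to 67 without single libraries, and limma called 7 genes lower and 8 higher (23.7% and 29.2% of all genes). The median fold of -0.15 was -0.64 with total counts and -0.27 to 0.14 without single libraries, turning sign without N87 vehicle replicate 1. In OE19 with lapatinib, the 1 higher sgRNA was 2 with median-of-ratios factors, no minimum or DESeq2, 0 with total counts, 3 with control guide scaling and 0 to 12 without single libraries, the lower ones were 0 to 7, and the median fold of 0.10 was -0.36 with total counts and 0.057 to 0.16 without single libraries. For lapatinib against baseline in N87, the 94 lower sgRNAs were 48 to 114 and the 53 higher 33 to 65 without single libraries, or 32 higher with total counts, and limma called 17 genes lower and 5 higher (27.5% and 31.7% of all genes). In OE19 the 0 lower and 0 higher sgRNAs were 12 and 3 by DESeq2, 0 to 54 and 0 to 20 without single libraries, and the 1 gene was 0 with median-of-ratios factors, no minimum, all ranks, limma and the block, and 0 to 1 without single libraries. For the differences between the lines, the growth sgRNAs lower were 0 to 1, the 33 lower and 42 higher with lapatinib were 19 and 64 with control guide scaling and 21 to 38 and 22 to 55 without single libraries, and limma called 5 genes lower and 8 higher (19.2% and 17.2% of all genes). The cause of these differences was not tested. Of the calls for single genes 152 were kept and 43 lost over the alternatives, and of the single sgRNA folds 39 moved and 108 did not. Replicate numbers are shared by the conditions, but the labels do not say what they mark, and same-numbered deviations correlated with r = 0.24 and 0.07 in N87 and OE19 growth and between 0.03 and 0.06 in the others. With the replicate number as a block, the sgRNAs lower in growth were 45 in N87 and 42 in OE19, the genes 11 and 6, the OE19 sgRNA higher with lapatinib 2, and the OE19 sgRNAs against baseline with lapatinib 8 lower and 2 higher. Depth limits the sgRNAs below 40 counts, of which 3 replication sgRNAs were not tested in growth of each line and 8 and 5 with lapatinib in N87 and OE19.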
